A study of Mus musculus with 6 samples.

Results

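The data described here concern 28 genes that were low in endothelial cells (EC) of the infant mouse lung and higher in EC of the young adult lung. They were chosen by their measured level, in RPKM (reads per kilobase of transcript, scaled to the mapped reads of the library), in the 6 RNA-seq libraries of the series. A gene was taken when its highest infant value was at most 1.5 RPKM and its lowest young adult value was at least 2 RPKM and at least 2 times its highest infant value. Cyp1a1 and Gm4951 also met these limits and were set aside by name. This left 28 of the 12623 genes in the table. Because the same values selected the genes, their difference between the ages is given below as a description and without a test.

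The libraries were made from EC of C57BL/6N mice, 3 from infant and 3 from young adult lungs, with no treatment or engineered allele in either group. According to the study's methods, the cells were sorted directly after digestion of the lung, with CD31 and CD34 as positive and PTPRC, LYVE1, PDPN and LY76 as negative markers and dead cells left out. The libraries of a group are numbered 1 to 3. Nothing in the labels says whether a library came from a single animal, so the spread between libraries may be partly technical. The comparison asks which genes EC express once the vessels of the lung have stopped growing.

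Of the 28 genes, 11 are on lists of the interferon response or of MHC genes. Interferons bind receptors on nearly all cells and, through JAK kinases and STAT factors, switch on genes whose promoters hold an interferon-stimulated response element or a gamma-activated site. The products include GTPases that attack the vacuoles of intracellular pathogens, enzymes and sensors that recognise foreign nucleic acid, and the MHC molecules that present peptides to T cells. EC line every vessel, so they meet blood-borne microbes and leukocytes early and are known to respond to interferon.

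The stretches of promoter that carry the interferon-stimulated response element core are shown here because 7 of the 17 genes with a promoter sequence held it. The core was searched as GAAANNGAA on both strands of 300 bases, from 250 before to 50 after the annotated start of transcription in RefSeq, build GRCm38.p6. In the sequences, written 5′ to 3′ in the direction of the gene, capitals mark the core (or its reverse complement), with up to 25 bases on each side and no more than 20 bases past the start. The stretch shown for Gm12250 lies at chr11:58183728-58183831 on the plus strand, and that for Gm12185 at chr11:48927224-48927282 on the minus strand. The stretch for Gbp5 is chr3:142496745-142496803 (plus strand), and that for Oas1g chr5:120887594-120887656 (minus strand). For Apol9b it is chr15:77729011-77729075 (plus strand), for Apol10b chr15:77596106-77596153 (minus strand), and for Selp chr1:164115248-164115283 (plus strand).
Gm12250: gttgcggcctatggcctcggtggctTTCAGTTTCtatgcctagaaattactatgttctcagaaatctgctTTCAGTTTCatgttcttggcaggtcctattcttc
Gm12185: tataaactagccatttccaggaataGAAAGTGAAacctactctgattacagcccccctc
Gbp5: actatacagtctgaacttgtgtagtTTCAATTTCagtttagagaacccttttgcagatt
Oas1g: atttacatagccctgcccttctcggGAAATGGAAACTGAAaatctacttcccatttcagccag
Apol9b: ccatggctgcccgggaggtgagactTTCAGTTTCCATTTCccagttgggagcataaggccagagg
Apol10b: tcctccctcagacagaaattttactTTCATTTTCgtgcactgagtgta
Selp: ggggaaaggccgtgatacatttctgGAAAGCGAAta

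In Oas1g and Apol9b, 2 matches overlapped into a longer run, and Gm12250 held 2 separate matches. The match in Selp began 9 bases after the start of transcription, and the others began before it. The share with the core was 41.2% of the 17 promoters, beside 8.81% of the promoters of 9656 tested genes, 9.76% of all 27025 genes with a promoter, and 23.6% of 284 other genes called higher in young adult EC. Of 69 other genes of the interferon and MHC lists described below, 47.8% held it. Gm12250 and Gm12185 belong to the same gene family, as do Apol9b and Apol10b, so their matches are not independent.

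The gamma-activated site, searched as TTCNNNGAA, was matched in 4 of the 17 promoters (Fgl2, Gbp5, Gm12185 and Gm12250). That is 23.5%, beside 8.31% of the tested genes, 9.55% of all genes and 13.7% of the other genes called higher. The TATA box (TATAAA) was matched in Clec4g, Gm12185 and H2-Q4, 17.6% beside 9.17%, 15.7% and 15.8% of the same sets. CCAAT was matched in 8 promoters, 47.1% beside 43.0%, 41.1% and 42.6%. The core of the xenobiotic response element (GCGTG) was matched in Dnm3 and Fgl2, 11.8% beside 55.0%, 35.2% and 42.6%. The E-box (CACGTG) was matched in Casp1, 5.88% beside 11.6%, 8.09% and 6.69%, and the glucocorticoid response element core (ACANNNTGT) in Oasl1, 5.88% beside 5.18%, 7.9% and 9.86%. CG dinucleotides numbered a median of 4 in the 17 promoters, with a range of 0 in Gm12185 to 30 in Trpv4, while the median was 8 over all genes with a promoter, 22 over the tested genes and 11 over the other genes called higher. The xenobiotic core and the E-box each contain a CG, and the part of the low CG number in their shares was not tested. A match is a run of letters and was not shown to be a bound site. No promoter sequence was used for 9130208D14Rik, Ciita, F830016B08Rik, Gbp11, Gm6904, Gm8989, Ido1, Oas2, Plau and Zbp1, among others.

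**Figure D1:**
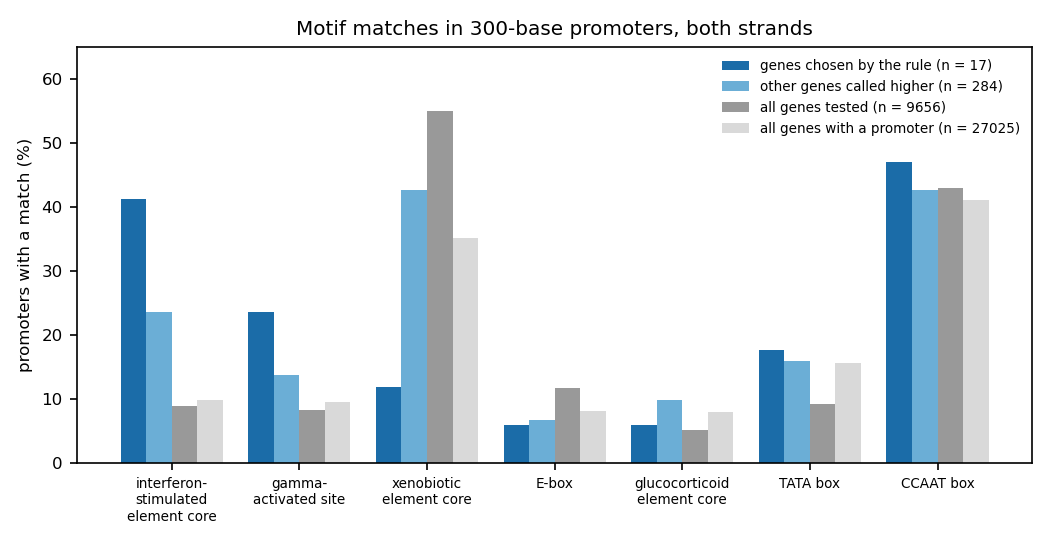
Share of promoters (vertical axis, percent) with at least 1 match to each of 7 motifs on either strand, in the 17 genes chosen by the rule that had a promoter sequence, in 284 other genes called higher, in 9656 tested genes and in all 27025 genes with a promoter. The interferon-stimulated core was found in 41.2% of the chosen genes and 8.81% of the tested genes, and the xenobiotic core in 11.8% and 55.0%. The xenobiotic core contains a CG dinucleotide, whose median number was 4 in the chosen and 22 in the tested genes.

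Several facts about the 6 libraries bear on every value below. The first principal component of log2(RPKM + 1) held 79.7% of the variance and separated the ages, with infant replicate 2 at -12.4, replicates 1 and 3 at -48.8 and -48.3, and the young adult libraries between 33.3 and 41.7. The 16 endothelial markers examined were above 0 in all libraries. Lyve1, whose protein was a negative marker of the sort, gave 68.6 to 171.4 RPKM in infant and 252.9 to 396.4 RPKM in young adult libraries. Of the other negative markers, Ptprc and Pdpn were at 7 RPKM or less in every library. Transcripts of fibroblasts summed to 382 to 1363 RPKM in infant and 14.8 to 29.5 RPKM in young adult libraries, and those of red cells to 9656 to 79864 and 822 to 1351 RPKM. The 13 epithelial markers tested summed to 6629, 11553 and 8579 RPKM in infant replicates 1 to 3. In young adult replicates 1 to 3 their sums were 1848, 4857 and 8443 RPKM, with 1 marker called higher and 5 lower. The Y-linked genes Ddx3y, Eif2s3y, Uty and Kdm5d lay between 2.1 and 21.9 RPKM in the infant libraries. In the young adult libraries these genes were at 0. The methods describe female mice, with which the Y-linked transcripts in the infant libraries conflict. Age and sex therefore cannot be told apart. Xist, a transcript of female cells, was also detected in each infant library (8.2, 8.7 and 7.6 RPKM). Its mean at the young adult age was 13.8 RPKM. Whether an infant library held cells of both sexes, and so of more than 1 animal, was not tested. None of the 28 genes is on chromosome X or Y. As in any bulk sample, a lower value can be fewer cells that express a gene or less RNA per cell.

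In young adult EC the 28 genes were at low to moderate levels. Their mean level in young adult EC ran from 2.33 RPKM (Oasl1) to 11.2 RPKM (Gm12250) with a median of 4.43 RPKM, beside a median of 5.8 RPKM over all tested genes, and 10 of them reached a mean of 5 RPKM. In infant EC single values lay between 0.1 and 1.5 RPKM, and none of the genes was at 0 in all 3 infant libraries. The ratio of the mean young adult to the mean infant RPKM ran from 3.36 (Trpv4) to 37.4 (Gm12250), with a median of 5.98. Since values are rounded to 0.1 RPKM, ratios with a very low infant mean are coarse.

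**Figure D2:**
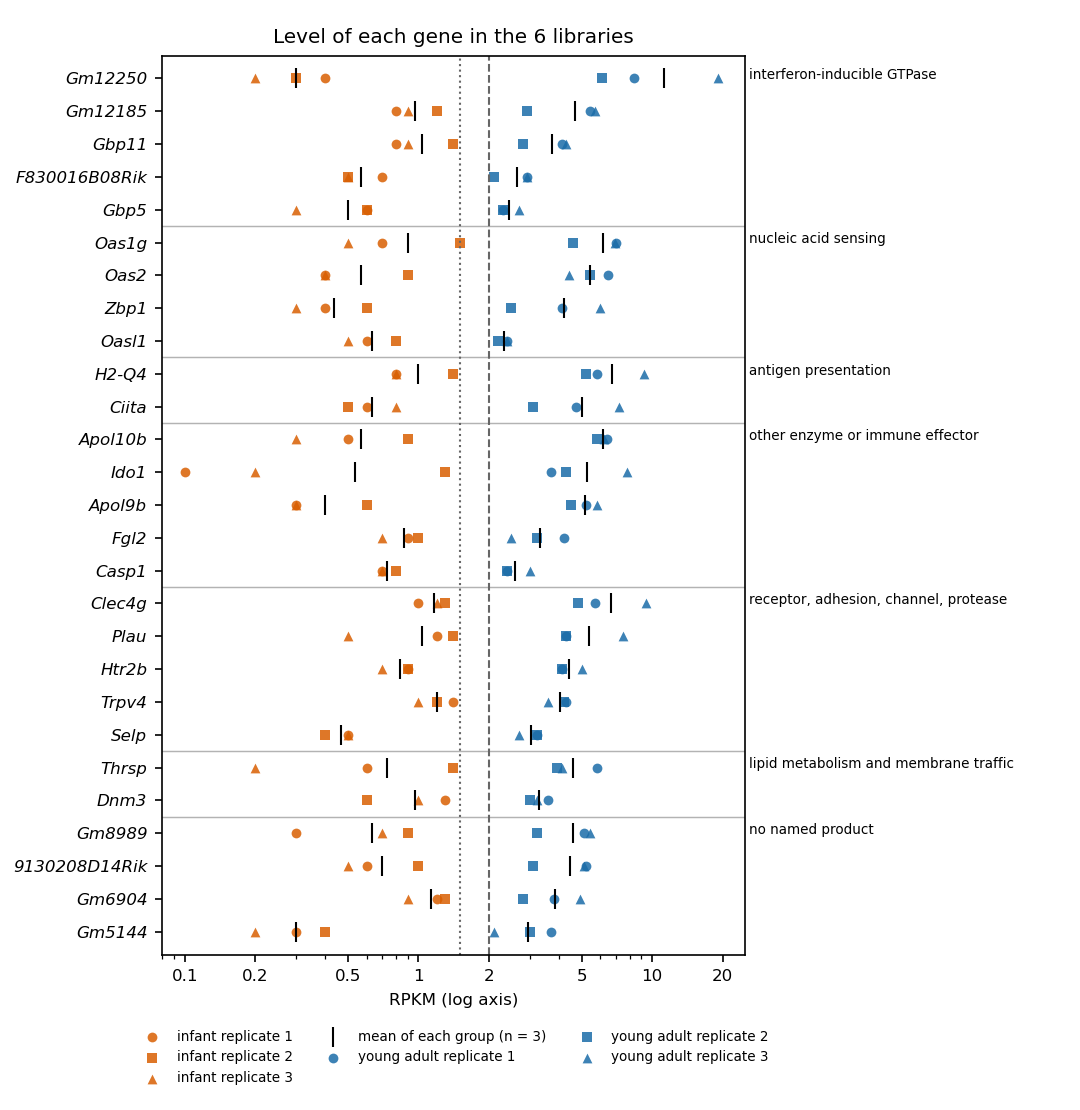
RPKM (horizontal log axis) of 27 of the 28 genes in the 3 infant (orange) and 3 young adult (blue) libraries, ordered by role, with black bars at the means of each group. The dotted line is the upper limit for infant values (1.5 RPKM) and the dashed line the lower limit for young adult values (2 RPKM), so the gap between the colours is set by the rule. Gm12250 has the widest gap and the highest single value, 19.2 RPKM.

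In the fit over all 12458 tested genes, 415 were called higher in young adult EC (3.33%) and 1009 lower (8.1%), and in 2041 (16.4%) the lowest young adult value was above the highest infant value. All 28 genes chosen by the rule passed the filter on low values, which their young adult values alone ensured, and all 28 were among those called higher. Their fold changes on the log2(RPKM + 1) scale were 1.03 to 3.09 with a median of 1.61, beside -0.07 over all genes tested. The rule used this same contrast, so the count and the median describe the choice.

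The interferon-inducible GTPases were the group with the largest single ratio. Gm12250, an immunity-related GTPase gene at chr11:58183843-58190198, stood at 0.4, 0.3 and 0.2 RPKM in the infant libraries against 8.4, 6.1 and 19.2 RPKM in the young adult ones (replicates 1 to 3, as in all such series of values). Its young adult mean was 11.2 ± 6.99 RPKM (SD, n = 3), and replicate 3 carried most of the spread. Even the lowest young adult library was 15.3 times the highest infant one, the widest gap of the 28. Gm12185, of the same family and at chr11:48904656-48927182, gave infant values of 0.8, 1.2 and 0.9 RPKM against young adult values of 5.4, 2.9 and 5.7 RPKM. F830016B08Rik, a further gene of this GTPase family on chromosome 18, was found at 0.7, 0.5 and 0.5 RPKM in the infant group, compared with 2.9, 2.1 and 2.9 RPKM in the young adult group. In both, young adult replicate 2 was the lowest of its group.

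Guanylate-binding proteins are large GTPases that coat pathogen vacuoles. Gbp5, known for its part in inflammasome activation, lies at chr3:142496934-142522344 and stood at 0.6, 0.6 and 0.3 RPKM in the infant libraries against 2.3, 2.3 and 2.7 RPKM in the young adult ones. Its young adult values were close together (2.43 ± 0.231 RPKM, SD, n = 3). Gbp11, at chr5:105323026-105346476 and annotated as a transcribed pseudogene, gave infant values of 0.8, 1.4 and 0.9 RPKM against young adult values of 4.1, 2.8 and 4.3 RPKM. It was the gene nearest the ratio limit, its lowest young adult value being 2 times its highest infant value.

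Of the whole list of 25 interferon-inducible GTPases tested, 23 were called higher and 0 lower (0 also at an unadjusted p under 0.05; median change 1.57 on the log2 scale). Without the 5 genes that the rule selected, 18 of 20 were called higher. In young adult EC the most abundant of the others were Tgtp2, Tgtp1 and Ifi47, T-cell-specific and immunity-related GTPases. Ranking by the young adult mean favours genes that are higher at that age. Tgtp2 was found at 29.8, 59.6 and 30.2 RPKM in the infant group, compared with 226.5, 122.1 and 257.1 RPKM in the young adult group, a log2 fold change of 2.32 ± 0.344 (SE, adjusted p = 0.00461). Ifi47 reached 81.6, 63.2 and 86.3 RPKM in the young adult libraries (log2 fold change 2.24 ± 0.223, SE, adjusted p = 0.00132), and Tgtp1 rose from a mean of 28.4 to 144.8 RPKM (2.31 ± 0.350, SE, adjusted p = 0.00497). Young adult replicate 2 was the lowest of its group for Tgtp2, Tgtp1 and Ifi47 as well.

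A further group of 4 genes acts on foreign nucleic acid. Oas1g and Oas2 are oligoadenylate synthetases, which make a messenger that activates RNase L when double-stranded RNA is present. Oas1g (chr5:120876142-120887613) stood at 0.7, 1.5 and 0.5 RPKM in the infant libraries against 7.0, 4.6 and 6.9 RPKM in the young adult ones. Oas2 (chr5:120730333-120749886) gave infant values of 0.4, 0.9 and 0.4 RPKM against young adult values of 6.5, 5.4 and 4.4 RPKM. In both genes infant replicate 2 was the highest of its group, and for Oas1g it lay exactly at the limit of 1.5 RPKM.

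Zbp1, a sensor of nucleic acid in the Z conformation that can start necroptosis, lies at chr2:173206612-173218959. It was found at 0.4, 0.6 and 0.3 RPKM in the infant group, compared with 4.1, 2.5 and 6.0 RPKM in the young adult group, the latter a range of 2.4 times within the group. Oasl1, a synthetase-like protein without the catalytic activity (chr5:114923143-114937911), stood at 0.6, 0.8 and 0.5 RPKM in the infant libraries against 2.4, 2.2 and 2.4 RPKM in the young adult ones. It had the lowest mean and the narrowest young adult range of the 28 genes, 1.09 times from lowest to highest.

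Of 44 antiviral interferon-stimulated genes tested, 33 were called higher and 1, Ifitm1, lower (median change 1.07 on the log2 scale). Among the 40 that the rule did not select, 29 were called higher. Without young adult replicate 1 the number called higher in the list was 19, and without infant replicate 2 the number called lower was 2. By young adult mean, the most abundant of the others were Ifitm3, Ifitm2 and Bst2, membrane proteins that block virus entry or release. Ifitm3 gave infant values of 191.4, 325.7 and 245.1 RPKM against young adult values of 898.6, 777.1 and 799.0 RPKM (log2 fold change 1.73 ± 0.210, SE, adjusted p = 0.0024). Ifitm2 changed by 0.93 ± 0.158 (SE, adjusted p = 0.00753). For Bst2 the log2 fold change was 1.30 ± 0.278 (SE, adjusted p = 0.0158), and its adjusted p was 0.0573, 0.0537, 0.0633 and 0.0538 without infant replicate 1, infant replicate 3, young adult replicate 2 and young adult replicate 3.

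The 2 genes for antigen presentation stand at different steps. H2-Q4, a non-classical MHC class I molecule at chr17:35379617-35384674, was found at 0.8, 1.4 and 0.8 RPKM in the infant group, compared with 5.8, 5.2 and 9.2 RPKM in the young adult group. Ciita, the coactivator on which transcription of the MHC class II genes depends, lies at chr16:10480014-10531064. It stood at 0.6, 0.5 and 0.8 RPKM in the infant libraries against 4.7, 3.1 and 7.2 RPKM in the young adult ones. Both were highest in young adult replicate 3 and lowest in replicate 2. The 3 transcript rows of Ciita gave nearly the same values, with 6.8 to 7.2 RPKM in young adult replicate 3.

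The MHC genes that go with them were mostly far more abundant. Of 24 MHC class I and loading genes tested, 21 were called higher and 0 lower (median log2 fold change 1.69), and 20 of 23 without H2-Q4. B2m, the light chain of class I molecules, rose from a mean of 757 to 2835 RPKM (log2 fold change 1.98 ± 0.348, SE, adjusted p = 0.00847). The classical heavy chains H2-D1 and H2-K1 changed by 2.08 ± 0.334 (SE, adjusted p = 0.00611) and 2.57 ± 0.345 (SE, adjusted p = 0.00337). Nlrc5, the class I counterpart of Ciita, was named after its values were seen. It gave infant values of 0.6, 2.5 and 0.8 RPKM against young adult values of 9.1, 7.7 and 13.9 RPKM (log2 fold change 2.34 ± 0.316, SE, adjusted p = 0.00338), and only its value in infant replicate 2 kept it out of the 28.

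Of 14 MHC class II genes tested, 6 were called higher and 0 lower (2 at an unadjusted p under 0.05; median change 0.33 on the log2 scale), and 5 of 13 without Ciita. Without young adult replicate 3, 1 gene of the list was called lower. H2-Aa and H2-Ab1, the chains of the I-A molecule, had young adult values of 77.5, 60.6 and 138.9 RPKM and of 49.2, 53.7 and 100.2 RPKM. Their log2 fold changes were 1.67 ± 0.296 (SE, adjusted p = 0.00874) and 2.32 ± 0.296 (SE, adjusted p = 0.00285). Cd74, the invariant chain and the most abundant gene of the list, was found at 178.2, 147.4 and 286.9 RPKM in the infant group, compared with 145.2, 144.3 and 408.5 RPKM in the young adult group. It did not pass the test (log2 fold change 0.061 ± 0.426, SE, adjusted p = 0.929).

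Class II genes are also strongly expressed by B cells, macrophages and dendritic cells, whose markers varied among these libraries. The 10 pan-leukocyte markers had sums of 47.7, 50.7 and 102.5 RPKM at the infant age against 6.3, 22.9 and 41 RPKM at the young adult age. By limma 0 were called higher and 5 lower, and at an unadjusted p under 0.05 the numbers were 0 and 9. Vav1 was at 0 in young adult replicate 1, and the other 9 were above 0 throughout. The 10 macrophage and dendritic cell markers tested, most of whose sum is Lyz2 and Lyz1, had sums of 363, 574 and 439 RPKM at the infant age against 174, 339 and 631 RPKM at the young adult age, with 0 called in either direction (0 higher and 5 lower at an unadjusted p under 0.05). Ccr2 was at 0 in young adult replicates 1 and 2 and Marco in replicate 1. The B cell markers summed to 19.8 to 61.5 RPKM in infant and 1.9 to 9.0 RPKM in young adult libraries. Ciita was lower in the libraries with the higher pan-leukocyte and B cell sums when the ages are compared, and within the young adult group its highest value was in replicate 3, with the highest pan-leukocyte and macrophage sums, and its lowest in replicate 2, where the pan-leukocyte sum was not the lowest and the B cell sum was the highest. Their part in its level was not tested.

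A group of 5 genes codes for other immune enzymes and effectors. Apol10b (chr15:77584154-77598542) and Apol9b (chr15:77729047-77736382) are apolipoprotein L genes, whose human relative lyses trypanosomes. Apol10b stood at 0.5, 0.9 and 0.3 RPKM in the infant libraries against 6.4, 5.8 and 6.2 RPKM in the young adult ones. Apol9b gave infant values of 0.3, 0.6 and 0.3 RPKM against young adult values of 5.2, 4.5 and 5.8 RPKM. Both varied little within the young adult group (SD 0.306 and 0.651 RPKM, n = 3), and their ratios of means of 10.8 and 12.9 were among the highest after that of Gm12250.

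Ido1, which degrades tryptophan and so restrains T cells and some parasites, lies at chr8:24584133-24596952. It was found at 0.1, 1.3 and 0.2 RPKM in the infant group, compared with 3.7, 4.3 and 7.8 RPKM in the young adult group. Infant replicate 2 was 13 times replicate 1 and came close to the limit, the widest infant range of the 28 genes. Within the young adult group, Ido1 followed the order of the pan-leukocyte sum, with replicate 3 highest and replicate 1 lowest. In the infant group the highest pan-leukocyte sum was in replicate 3, where Ido1 was at 0.2 RPKM, and these sums were lower in the young adult group, where Ido1 was higher. Within each age the epithelial sums ran in the same order as Ido1, and they were mostly lower in the young adult group, where Ido1 was higher. The contribution of other cells was not tested. Casp1, the protease of the inflammasome (chr9:5298517-5307281), stood at 0.7, 0.8 and 0.7 RPKM in the infant libraries against 2.4, 2.4 and 3.0 RPKM in the young adult ones. Fgl2, a membrane prothrombinase (chr5:21372673-21378386), gave infant values of 0.9, 1.0 and 0.7 RPKM against young adult values of 4.2, 3.2 and 2.5 RPKM, with the order of the young adult libraries opposite to that of Ido1.

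Another 5 genes code for surface or secreted proteins outside the interferon lists. Clec4g, a C-type lectin best known from the sinusoidal endothelium of liver and lymph node (chr8:3707066-3720695), was found at 1.0, 1.3 and 1.2 RPKM in the infant group, compared with 5.7, 4.8 and 9.4 RPKM in the young adult group. Plau, the urokinase-type plasminogen activator (chr14:20836662-20843388), stood at 1.2, 1.4 and 0.5 RPKM in the infant libraries against 4.3, 4.3 and 7.5 RPKM in the young adult ones. Clec4g and Plau shared young adult replicate 3 as their highest library. The urokinase receptor gene Plaur, looked up after these values were seen, was abundant at both ages (158 and 213 RPKM on average) and did not pass the test (log2 fold change 0.42 ± 0.227, SE, adjusted p = 0.205).

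Htr2b, a serotonin receptor (chr1:86097546-86116231), gave infant values of 0.9, 0.9 and 0.7 RPKM against young adult values of 4.1, 4.1 and 5.0 RPKM. Trpv4, a calcium-permeable channel that opens on stretch and swelling (chr5:114622152-114658435), was found at 1.4, 1.2 and 1.0 RPKM in the infant group, compared with 4.3, 4.2 and 3.6 RPKM in the young adult group. Both were even within each age. The difference was smallest for Trpv4, 3.36 times between the means.

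Selp, the adhesion receptor P-selectin that EC and platelets store in granules and bring to the surface to catch leukocytes, lies at chr1:164115264-164150026. It stood at 0.5, 0.4 and 0.5 RPKM in the infant libraries against 3.2, 3.2 and 2.7 RPKM in the young adult ones. Its infant and young adult SD were 0.0577 and 0.289 RPKM (n = 3), among the smallest of the 28. The 4 platelet markers tested (Gp9, Itga2b, Pf4 and Ppbp) had sums of 4.7, 16.3 and 9.6 RPKM at the infant age against 7.4, 14.2 and 11.4 RPKM at the young adult age, and limma called 0 of them, also at an unadjusted p under 0.05. The part of platelets in the level of Selp was not tested. Selp is also a gene of venous EC, and the 8 venous markers tested, with 6 called higher and 1 lower, summed to 77.0 to 88.2 RPKM in infant and 227 to 337 RPKM in young adult libraries. The marker called lower was Nr2f2, with means of 10.3 RPKM in infant and 2.43 RPKM in young adult EC. Vwf, which is also among the endothelial markers, gave 28.4 to 33.8 and 103.8 to 157.1 RPKM of these sums. Whether more venous cells or more transcript per cell gave its level was not tested.

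Lipid metabolism and membrane traffic were represented by Thrsp and Dnm3. Thrsp, a regulator of fatty acid synthesis (chr7:97412933-97417550), gave infant values of 0.6, 1.4 and 0.2 RPKM against young adult values of 5.8, 3.9 and 4.1 RPKM. Dnm3, a dynamin that pinches vesicles from membranes (chr1:161982450-162478321), stood at 1.3, 0.6 and 1.0 RPKM in the infant libraries against 3.6, 3.0 and 3.2 RPKM in the young adult ones. For Thrsp the infant values spread over 7 times, with replicate 2 again highest.

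The last 4 genes have no named product. Gm8989 gave infant values of 0.3, 0.9 and 0.7 RPKM against young adult values of 5.1, 3.2 and 5.4 RPKM. The accession of its stronger row belongs to Gm8979 in RefSeq (chr7:106075731-106079148), a transcribed pseudogene, and its other row was weaker, at 0.8, 0.2 and 0.6 RPKM in young adult EC. 9130208D14Rik, 219.7 kb away at chr7:105823257-105856011, was found at 0.6, 1.0 and 0.5 RPKM in the infant group, compared with 5.2, 3.1 and 5.1 RPKM in the young adult group. In both, young adult replicate 2 was lowest, as for the GTPase genes.

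Gm6904 was matched only by a synonym to a RefSeq pseudogene of the Phf11 family (chr14:59238767-59260189), so its type and position are less certain. Gm6904 stood at 1.2, 1.3 and 0.9 RPKM in the infant libraries against 3.8, 2.8 and 4.9 RPKM in the young adult ones. Gm5144, a long non-coding RNA at chr15:11906525-11907390, gave infant values of 0.3, 0.4 and 0.2 RPKM against young adult values of 3.7, 3.0 and 2.1 RPKM. It overlaps Npr3, the clearance receptor of natriuretic peptides, whose values of 2.2, 3.2 and 1.6 RPKM (infant) and 21.4, 19.3 and 12.1 RPKM (young adult) run in the same order (log2 fold change 2.47 ± 0.239, SE, adjusted p = 0.00123). Strand-specific counting is not stated, so reads of Gm5144 and Npr3 cannot be told apart.

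The position of the genes was not used by the rule. They lay on 14 chromosomes, 6 of them on chromosome 5, and 23 were protein coding. Within 100 kb of the 28 genes there were 82 other tested genes, of which 28 were called higher (34.1%, beside 3.33% of all tested genes) and 2 lower. At least 1 neighbour called higher was found for 15 of the 28 genes. Most of these neighbours were copies of the same gene family, so they are not independent of each other, and reads can be shared between copies.

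Many of these neighbours were more strongly expressed in infant EC than the gene beside them that the rule chose, which the limit on infant values favours by construction. In 10 loci with 13 of the genes, 31 relatives nearby were looked up after the values were seen, and 27 of these were called higher while 24 had a mean infant level above 1.5 RPKM. Beside H2-Q4, H2-Q6 was found at 3.3, 7.4 and 4.7 RPKM in the infant group, compared with 94.7, 84.9 and 138.7 RPKM in the young adult group (log2 fold change 4.15 ± 0.266, SE, adjusted p = 0.000362), and H2-Q7 changed by 4.01 ± 0.369 (SE, adjusted p = 0.00102). Their infant values were above the limit of the rule. Their fold changes on the log2(RPKM + 1) scale were larger than that of any of the 28, while their ratios of means of 20.7 and 16.8 were under that of Gm12250.

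Oas1a, next to Oas1g, rose from a mean of 3.83 to 23.8 RPKM (log2 fold change 2.47 ± 0.320, SE, adjusted p = 0.00307), and Igtp, next to Gm12250, from 10.2 to 67.5 RPKM (2.59 ± 0.295, SE, adjusted p = 0.00197). Gvin1, a very large interferon-inducible GTPase beside Gm8979, rose from 7.37 to 47.5 RPKM (2.57 ± 0.290, SE, adjusted p = 0.0019). By contrast, Apol9a, the near-identical neighbour of Apol9b, was as low as the chosen genes in infant EC (0.3, 0.3 and 0.1 RPKM) and missed the young adult limit with 2.9, 1.8 and 2.1 RPKM. Oas1c, Gbp2b, H2-Q2 and H2-Q10 were near 1 RPKM in young adult EC and were not called, although Gbp2b, H2-Q2 and H2-Q10, with ratios of means of 3, 3.44 and 3.63, were called with a pseudocount of 0.1 and after quantile normalization. Copies that share sequence can exchange reads, so the split of the signal between Oas1g and Oas1a, Apol9b and Apol9a, Gbp11 and Gbp6 or Gbp10, Gm12185 and its neighbours, the H2-Q genes, and the Gvin and Phf11 pseudogenes is uncertain.

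**Figure D3:**
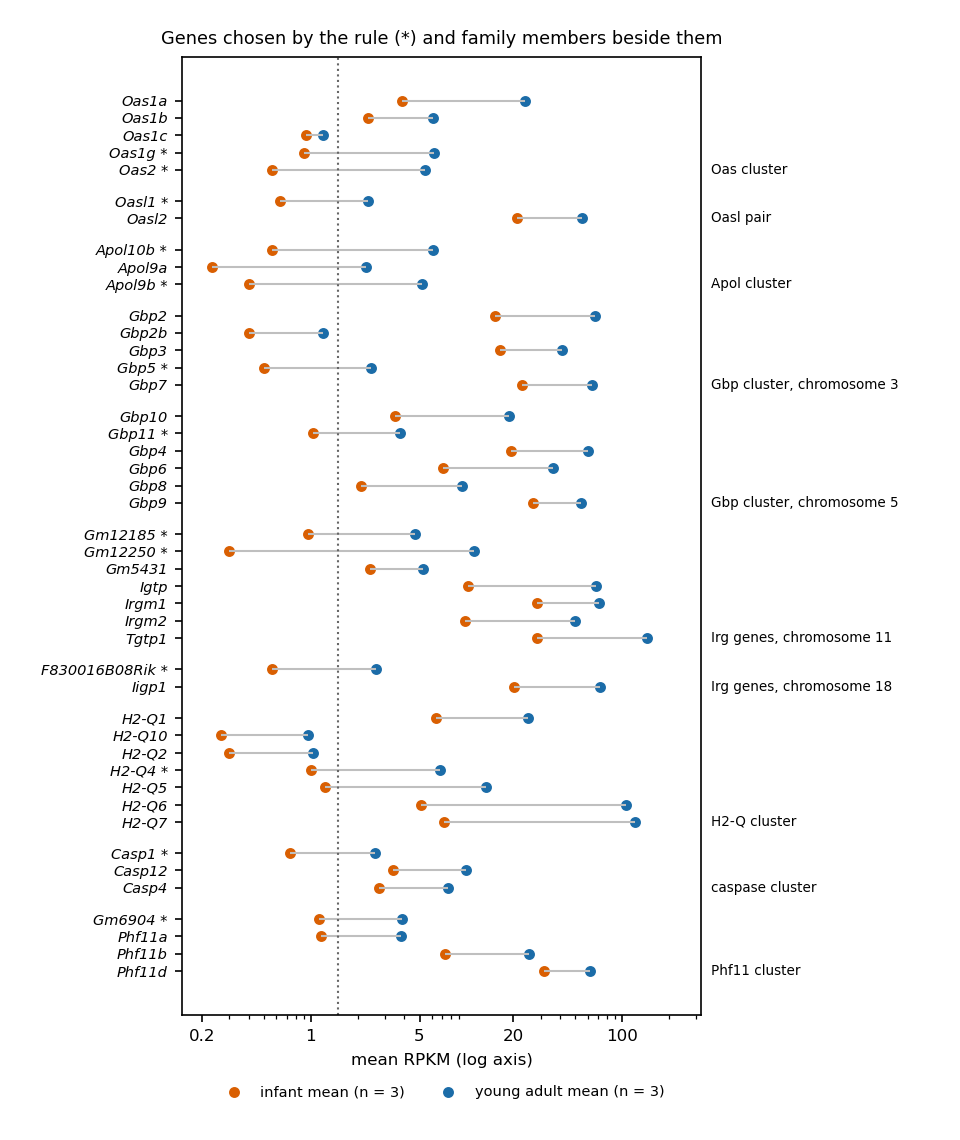
Mean RPKM (horizontal log axis) in infant (orange) and young adult (blue) EC, n = 3 each, of 13 genes chosen by the rule (marked *) and 31 relatives nearby, grouped by locus. The dotted line is the infant limit of 1.5 RPKM. The starred genes lie left of the dotted line in infant EC because the rule put them there, and 27 of the 31 relatives were called higher in young adult EC.

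Counted over lists, 11 of the 28 genes (39.3%) were on the lists of interferon-inducible GTPases, antiviral interferon-stimulated genes, MHC class I or MHC class II, which together held 107 tested genes (0.859%). Among the other 387 genes called higher, 72 (18.6%) were on them. The lists were chosen with earlier results of these data known, so these shares are a description and no test. The remaining 17 of the 28 were on none of these lists, although some of these genes, such as Ido1 and Casp1, are known to be induced by interferon. None of the 28 was on the lists of interferon signalling components, other nucleic acid sensors, chemokines, complement, xenobiotic metabolism, circadian clock or glucocorticoid-induced genes, nor on any list of cell type markers. Cyp1a1 had met the limits but was set aside by name and left off the xenobiotic list. The absence of chosen genes from that list is therefore partly set by the choice. Of 18 signalling components tested, 5 were called higher and 0 lower (3 at an unadjusted p under 0.05; median log2 fold change 0.24), among them Irf1, which rose from 93.0 to 191 RPKM (log2 fold change 1.03 ± 0.182, SE, adjusted p = 0.00864). Without young adult replicate 1, 3 of the 18 were called higher, and without infant replicate 2 or young adult replicate 3, 1 was called lower. Of 11 PYHIN and other sensors, 6 were called higher and 0 lower, and between 2 and 3 when any library other than infant replicate 2 was left out.

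Within each age, the libraries differed in a shared way. In the infant group, replicate 2 was alone the highest for 19 of the 28 genes (67.9%), beside 35.7% of all tested genes, 28.3% of genes with infant values at or under 1.5 RPKM and 84.4% of the other genes called higher. The rule holds infant values under a limit, so genes with a higher value in replicate 2 were left out by it. In the young adult group, replicate 2 was alone the lowest for 17 of the 28 (60.7%), beside 31.8% of all tested genes, and replicate 3 alone the highest for 15 (53.6%), beside 43.5%.

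Of the 11 genes on the interferon and MHC lists 9 were lowest in young adult replicate 2, and of the 17 others 8, a difference that was not tested. Of the 96 list genes that the rule had not selected, 61.5% were lowest in replicate 2 and 68.8% highest in replicate 3. For the median of the 28 genes, young adult replicate 3 was 1.33 times replicate 2, and for all tested genes 1.05 times. The coefficient of variation among young adult libraries had a median of 22.4% over the 28 genes and 11.5% over all tested genes, most of which have other levels. Over genes with infant values at or under 1.5 RPKM this median was 25%.

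**Figure D4:**
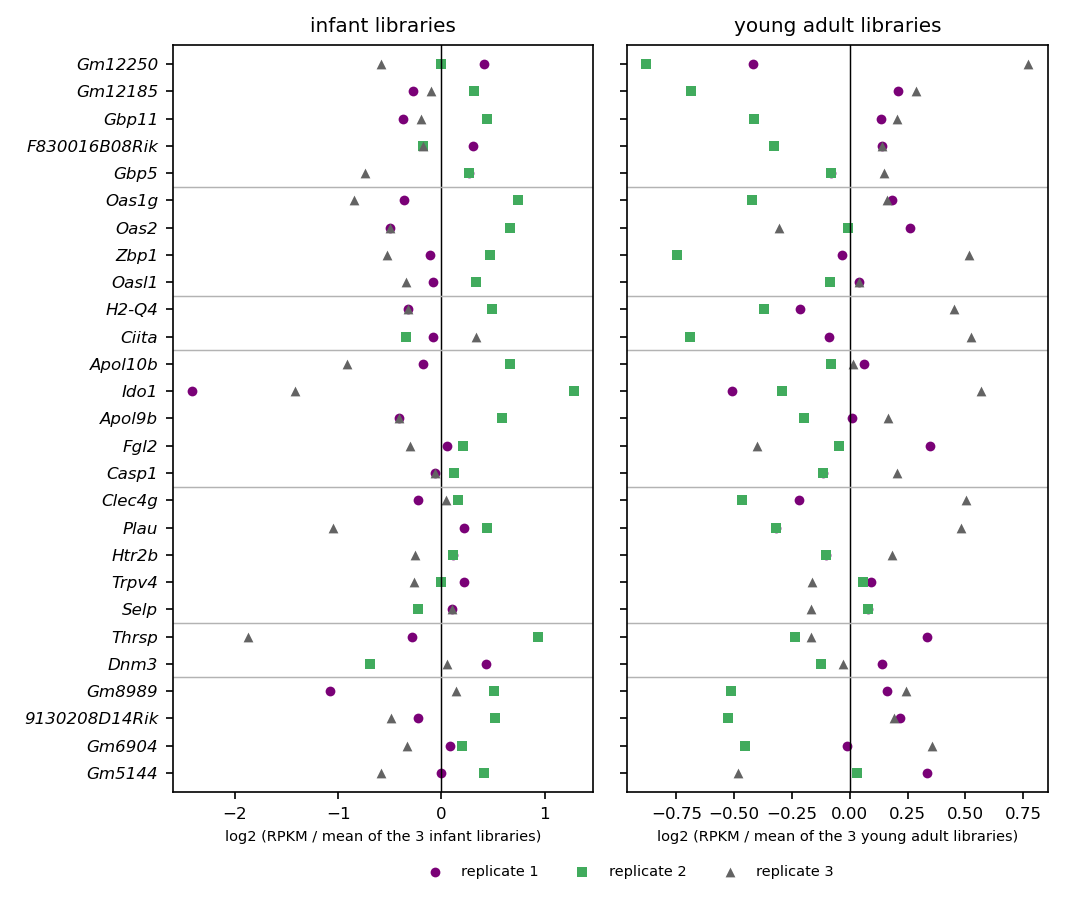
Each library's RPKM relative to the mean of its own age group (horizontal axis, log2 scale, with different ranges in the panels) for 27 of the 28 genes in order of role, infant libraries on the left and young adult libraries on the right. Infant replicate 2 lies at the right for most genes, and young adult replicate 2 at the left for the GTPases, for the MHC genes and for the sensors other than Oas2.

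The limits of the rule cut through a continuous distribution. Just inside the infant limit were Oas1g with a highest infant value of 1.5 RPKM and H2-Q4 and Plau with 1.4 RPKM. Just outside were Ada, 2600006L11Rik and Rhpn2 with 1.6 RPKM, whose lowest young adult values of 3.7, 3.8 and 3.6 RPKM met the other limits. At the young adult limit, Gm5144 and F830016B08Rik had a lowest value of 2.1 RPKM and Oasl1 of 2.2 RPKM, while Aspa, Apol9a and Olfr56 stopped at 1.8 RPKM. At the ratio limit, Gbp11, Gm6904 and Dnm3 stood at 2, 2.15 and 2.31 times, and Clca1 and Sntb1 at 1.92 and 1.82 times, with Gfod1 next below. The infant limit alone kept out 96 genes, the young adult limit alone 42 and the ratio alone 14.

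**Figure D5:**
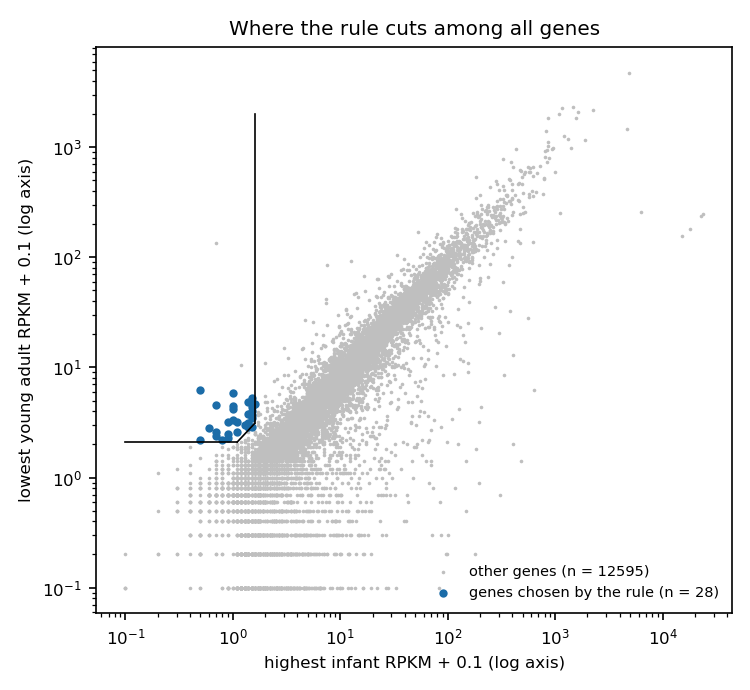
Highest infant RPKM (horizontal) against lowest young adult RPKM (vertical) of all 12623 genes, both plus 0.1 on log axes, with the 28 genes chosen by the rule in blue and its limits as black lines. The 2 grey points above the lines are the genes set aside by name, and the rest of the cloud runs on across the limits without a gap.

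Membership depended on single libraries and on scaling. Leaving out a library can add genes but cannot remove any, since the limits are set on the highest and the lowest value. Without infant replicate 2 the same limits took 53 genes, and the added ones held Nlrc5, Mx2, H2-Q5, H2-T10 and Phf11a. Leaving out any other library gave 28 to 38 genes. After quantile normalization 54 genes met the limits, all 28 included. With the mean over transcript rows in place of the strongest row, Gm8989 and Zbp1 dropped out and Immp2l came in, and with all libraries scaled to the same total Oas1g dropped out and Nqo1 came in.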

How the data were processed

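RNA of sorted lung EC was extracted with the PicoPure kit and amplified with the SMARTer Ultra Low kit. The authors sequenced paired ends, aligned the reads to mm10 with STAR and tested genes with DESeq2, using RefSeq annotation. Tool versions and the program behind the values are not given in the sources used here. The table deposited by the authors held RPKM per RefSeq transcript and library, rounded to 0.1, with 17241 rows. The study gives an average coverage but no depth per library, so no counting error could be given.

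Dates in place of symbols were restored by accession (24 rows), and the row with the highest mean was kept for each of 12623 symbols. RPKM are not counts, so a linear model (limma 3.58.1, R 4.3.3) of log2(RPKM + 1) took the place of the authors' count test, with all 6 libraries and age as the only term. Genes with at least 1 RPKM in at least 1 library were tested (12458), with Benjamini-Hochberg adjustment. A gene was called at an adjusted p under 0.05 and a fold change over 1.75 on that scale, which understates changes of low values. On simulated data the script recovered most of the changed genes. Ratios are of mean RPKM, without pseudocount. Coordinates are of whole genes in RefSeq GRCm38.p6, whose coordinates are those of mm10. Of the 28 genes 25 were placed by accession.

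The genes and the lists were chosen with earlier results of these data known, and the role groups and the family relatives after the values were seen. Values in every library were to be given for the 20 genes with the highest young adult mean. They were also to be given for those with the largest gap, those on a list and those nearest a limit. On each list that held any of the 28, the 3 other genes with the highest young adult mean were added. That choice favours genes that are higher at the young adult age. All but 1 of the 28 were then covered, the values of 1 gene not being reported here. The alternatives were pseudocounts of 0.1 and 5, no filter, quantile normalization, equal totals, the mean over transcript rows, a replicate term, other limits of the rule and leaving out each library.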

Additional observations from a re-analysis of the deposited data

How the results depend on the processing

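With a pseudocount of 5, which shrinks changes of low values by construction, 240 genes were called higher, 338 lower, and 9 of the 28 genes kept their call. In every other alternative run, leaving out each library included, all 28 kept it. The rule had set the ages apart in every library for these genes, so the kept calls describe the choice. Quantile normalization called 532 higher and 610 lower, so that 46.6% of calls were higher in place of 29.1%, and equal totals called 505 and 974 (34.1%). Quantile normalization moved the median of all genes from -0.07 to 0.04 and that of the 28 from 1.61 to 1.89 on the log2 scale. Leaving out 1 library gave 312 to 566 genes called higher and 518 to 1308 lower, the number lower being 614 without infant replicate 1, 615 if infant replicate 3 was left out, 518 without young adult replicate 1 and 551 if young adult replicate 2 was left out. Under the rule, 54 genes were taken after quantile normalization, 16 with an infant limit of 1 RPKM, 17 with a young adult limit of 3 RPKM, 18 with a ratio limit of 3, and 28 to 53 when 1 library was left out (53 without infant replicate 2), which can only add genes. Of the genes named by the rule that were not selected, Cd74 changed sign (log2 fold change -0.065 after quantile normalization and -0.44 to 0.33 when 1 library was left out, with -0.0072 in the absence of infant replicate 1, -0.14 in that of infant replicate 2 and -0.44 in that of young adult replicate 3), and Ifitm2 lost its call after quantile normalization (log2 fold change 0.72). The cause of these changes was not tested.

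Same-numbered libraries of the ages did not deviate together (correlations of 0.03, -0.11 and -0.02 for numbers 1 to 3). With 3 libraries per group this cannot decide whether the numbers pair them, and the main fit used no pairing. With the replicate block 412 genes were called higher and 959 lower. All 28 genes kept their call, which the rule favours by its choice. With no depth given per library and values rounded to 0.1 RPKM, infant levels under about 1 RPKM and the ratios that rest on them are imprecise.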
